A study of Mus musculus with 4 samples.

Results

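Syndecans, glypicans, perlecan and biglycan are core proteins of proteoglycans, the proteins to which cells attach long sulfated sugar chains. The genes described here are the syndecans Sdc1, Sdc2, Sdc3 and Sdc4, the glypicans Gpc1, Gpc4 and Gpc6, perlecan (Hspg2) and biglycan (Bgn). Their rows were found by gene symbol. Of the 10 genes listed, 9 had a row among the 21971 genes of the count table, and Gpc3 was not analysed here.

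Syndecans span the cell membrane and glypicans are held on its outer face by a lipid anchor, and both carry mainly heparan sulfate. Perlecan is a large heparan sulfate proteoglycan of basement membranes, and biglycan is a small leucine-rich matrix proteoglycan with chondroitin or dermatan sulfate. Heparan sulfate chains bind growth factors, matrix proteins and their receptors at the cell surface, and syndecan-1 is known as the main syndecan of epithelia.

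The cells were NMuMG, a mouse mammary epithelial line in which TGFβ induces epithelial-to-mesenchymal transition (EMT). One line stably expressed Vp16-TRF1ΔN, a mutated human TRF1 (a protein that binds telomeres) joined to the viral activator Vp16, which per the series description gives more TERRA-like telomeric RNA. The other line stably expressed the mutated human TRF1 alone (TRF1ΔN), so all libraries came from cells that carry a TRF1ΔN construct. The study asked how the Vp16 fusion alters the expression changes of EMT. There were 4 groups with 1 library each: Vp16-TRF1ΔN after 24 h of TGFβ at 5 ng/ml, Vp16-TRF1ΔN at 0 h (control), TRF1ΔN after 24 h of TGFβ at 5 ng/ml, and TRF1ΔN at 0 h (control). The sources used here do not say which promoter drives the constructs, or whether a line is 1 clone or a pool. With no 24 h library without TGFβ, an effect of TGFβ and one of 24 h more in culture cannot be told apart, and a difference between lines cannot be told apart from one between their libraries.

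The libraries held 35418985 to 45983910 counts in genes, the fewest in Vp16-TRF1ΔN cells at 24 h. Mitochondrially encoded genes took 15.7% and 11.4% of the counts in Vp16-TRF1ΔN cells at 24 h and 0 h, and 13.3% and 10.15% in TRF1ΔN cells at 24 h and 0 h. The construct row VP16 had 27 and 15 counts in the Vp16-TRF1ΔN libraries (24 h, 0 h) and 1 and 0 counts in the TRF1ΔN libraries (24 h, 0 h). The row TRF1DN had 159 and 123 counts in the Vp16-TRF1ΔN libraries and 7798 and 1863 counts in the TRF1ΔN libraries (24 h, 0 h), so the construct both lines carry was itself unequal between lines and times. Its part in the results below was not tested. Of 10 epithelial marker genes 8 had rows, summing to 6728 and 6684 CPM in Vp16-TRF1ΔN cells and to 6773 and 6923 CPM in TRF1ΔN cells (24 h, 0 h), where CPM is the count scaled to library size (TMM-scaled CPM). Keratins made up most of these sums, while Epcam had only 4 to 18 counts in any library. The near-equal sums hold members that moved in opposite directions: Krt8 and Krt18 rose with TGFβ by 0.30 and 0.56 on the log2 scale, while Krt19 fell by 3.42 and Ocln by 0.93 (adjusted p = 0.0236 or less for each). TGFβ changes were tested with 1 additive model of line and time over all 4 libraries, which leaves 1 residual degree of freedom, and p was adjusted over all genes tested by Benjamini and Hochberg's method. In this fit E-cadherin (Cdh1) fell with TGFβ by 1.46 ± 0.16 on the log2 scale (SE; adjusted p = 0.00398, edgeR quasi-likelihood test).

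Sdc3, encoding a syndecan best known from neural tissue, had the largest change with TGFβ among the members with at least 1 CPM on average. In Vp16-TRF1ΔN cells it had 349.7 CPM at 24 h and 31.0 CPM at 0 h. In TRF1ΔN cells it had 531.5 CPM at 24 h and 32.3 CPM at 0 h. Both 24 h libraries lay far above both 0 h libraries, and the 0 h libraries were close together. Averaged over the lines, Sdc3 rose by 3.77 ± 0.16 on the log2 scale (SE; adjusted p = 0.000858, edgeR quasi-likelihood test). Within a line no test is possible, and ratios of scaled counts are given with exact 95% intervals that cover counting error only. The ratio of 24 h to 0 h was 11.3 in Vp16-TRF1ΔN cells (10.7 to 11.95) and 16.45 in TRF1ΔN cells (15.6 to 17.3).

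The gene lies at chr4:130792537-130826319 on the plus strand (GRCm38, the same assembly as mm10; GENCODE M21). Its exons overlap 48 bases of Gm12970 and 415 bases of Gm26716, antisense genes with no row in the table, out of 5989 exonic bases, and the sources used here do not say whether the counting used strand. Biglycan, a core gene that rose from 2 or fewer counts, lies at chrX:73483602-73495933 on the plus strand. Sdc4, whose change with TGFβ was not called, lies at chr2:164424247-164443887 on the minus strand. The 250 bases before the RefSeq start of these 3 genes (GRCm38.p6; Sdc3 chr4:130792287-130792536, Bgn chrX:73483351-73483600, Sdc4 chr2:164443189-164443438) are shown to set the promoter windows of 2 genes that rose beside that of a highly expressed syndecan without a called rise. GENCODE's Sdc4 gene begins further upstream than RefSeq's, so the Sdc4 window lies inside the GENCODE gene, outside its exons. Each is written 5′ to 3′ on the gene's strand, and capitals mark CAGAC, the SMAD box, and GGGCGG, the GC box, on either strand.
Sdc3: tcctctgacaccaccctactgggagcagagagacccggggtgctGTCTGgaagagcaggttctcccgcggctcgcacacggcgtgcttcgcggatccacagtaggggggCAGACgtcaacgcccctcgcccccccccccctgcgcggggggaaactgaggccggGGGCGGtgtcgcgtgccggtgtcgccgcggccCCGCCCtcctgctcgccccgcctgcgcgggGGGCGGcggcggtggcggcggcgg
Bgn: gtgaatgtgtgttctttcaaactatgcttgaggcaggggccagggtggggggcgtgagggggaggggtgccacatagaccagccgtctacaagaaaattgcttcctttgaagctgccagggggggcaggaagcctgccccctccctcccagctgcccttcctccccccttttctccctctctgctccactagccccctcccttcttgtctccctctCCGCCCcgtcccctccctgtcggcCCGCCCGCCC
Sdc4: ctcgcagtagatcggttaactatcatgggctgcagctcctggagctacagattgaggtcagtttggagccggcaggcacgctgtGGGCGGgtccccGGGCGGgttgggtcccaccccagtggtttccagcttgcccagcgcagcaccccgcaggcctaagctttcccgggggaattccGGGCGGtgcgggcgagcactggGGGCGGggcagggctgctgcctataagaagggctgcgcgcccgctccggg

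The Sdc3 window held 2 CAGAC matches, 1 on each strand, and 3 GGGCGG matches. The Bgn window held no CAGAC and 3 GGGCGG matches on the reverse strand, the last pair overlapping, and the Sdc4 window held no CAGAC and 4 GGGCGG matches. Windows were found for 7 of the 10 listed genes, 6 of them with a count row. Among the others, Sdc1 had 1 CAGAC and 3 GGGCGG matches, Gpc4 had 1 GGGCGG match and Hspg2 had 5. The Gpc4 window lies wholly in GENCODE exons (250 of 250 bases), and the Sdc1 and Hspg2 windows hold 73 and 34 exonic bases. CAGAC occurred in 42.2% and GGGCGG in 32.7% of all 32851 RefSeq windows of this length. The AP-1 site TGACTCA (4.46% of windows) and the Snail and ZEB E-box CAGGTG (17.2%) matched in none of the member windows, and the telomeric unit TTAGGG (9.32%) matched once, in Hspg2. These are letter matches in 1 window per gene, not binding sites.

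Biglycan had almost no counts at 0 h and rose to a low level at 24 h. It had 25 counts at 24 h and 2 counts at 0 h in Vp16-TRF1ΔN cells, and 29 counts at 24 h and 0 counts at 0 h in TRF1ΔN cells. At 24 h this was 0.7295 CPM in Vp16-TRF1ΔN cells and 0.689 CPM in TRF1ΔN cells, so the level stayed below 1 CPM in each library. The 24 h libraries did not overlap the 0 h libraries. The ratio of 24 h to 0 h was 15.7 in Vp16-TRF1ΔN cells, with a wide interval (3.92 to 137.0) because the 0 h library held 2 counts. In TRF1ΔN cells Bgn was at least 10.9-fold higher at 24 h, taking 3 counts in the 0 h library (0.0630 CPM) as the floor for its count of 0, and the exact 95% counting interval reaches down to 8.34. The average rise was called (adjusted p = 0.00841, edgeR quasi-likelihood test). Bgn passed the filter on low counts only through its 24 h libraries, where it is high, so this call is no independent support. The summed level of fibroblast markers moved in the same direction. Of these, 3 of 5 had rows, summing to 11.8 and 1.88 CPM in Vp16-TRF1ΔN cells (24 h, 0 h) and to 21.2 and 1.32 CPM in TRF1ΔN cells (24 h, 0 h). Col1a1 and Pdgfra rose, and Col1a1 made up most of the sum at 24 h. Decorin (Dcn), another small leucine-rich proteoglycan, went the other way, with 0 counts in both 24 h libraries and 2 counts in both 0 h libraries. Single markers of other cell types rose too. Csf1r, a macrophage receptor, had 21 and 2 counts in Vp16-TRF1ΔN cells and 101 and 1 counts in TRF1ΔN cells (24 h, 0 h; adjusted p = 0.00462). Cdh5, the endothelial cadherin, had 24 and 5 counts in Vp16-TRF1ΔN cells and 50 and 4 counts in TRF1ΔN cells (24 h, 0 h; adjusted p = 0.00680). The defining markers Ptprc (immune) and Pecam1 (endothelial) had 1 to 7 counts in any library. Other single markers fell. Ptprc had 1 and 6 counts in Vp16-TRF1ΔN cells and 1 and 7 counts in TRF1ΔN cells (24 h, 0 h). Lyz2 (immune) had 0 and 9 counts in Vp16-TRF1ΔN cells and 0 and 10 counts in TRF1ΔN cells. Cidec (adipocyte) had 1 and 25 counts in Vp16-TRF1ΔN cells and 0 and 17 counts in TRF1ΔN cells (adjusted p = 0.00942, edgeR quasi-likelihood test). Csf1r and Cdh5 passed the filter on low counts only through 24 h, and Cidec only through 0 h. Summed levels of the 4 immune markers with rows were 3.85 and 3.48 CPM in Vp16-TRF1ΔN cells and 5.345 and 3.53 CPM in TRF1ΔN cells (24 h, 0 h). The sums of the 4 endothelial markers with rows also rose. They were 0.905 and 0.209 CPM in Vp16-TRF1ΔN cells and 1.38 and 0.189 CPM in TRF1ΔN cells (24 h, 0 h). Sums of the 3 adipocyte markers with rows fell. They were 0.0584 and 0.626 CPM in Vp16-TRF1ΔN cells and 0.0713 and 0.399 CPM in TRF1ΔN cells (24 h, 0 h). The part of these markers in the Bgn result was not tested, and in bulk RNA more cells of a type and more RNA per cell cannot be told apart.

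**Figure D1:**
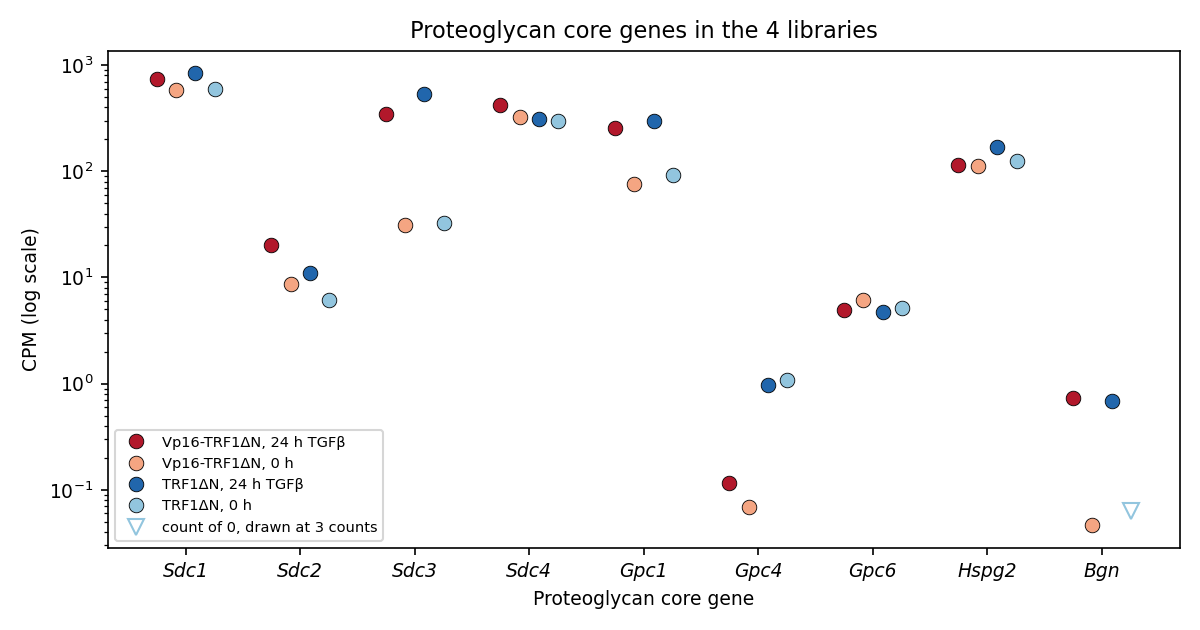
CPM on a log axis of the 9 core genes in each of the 4 libraries, 1 point per library; the open triangle is the count of 0 for Bgn, drawn at 3 counts. Sdc3, Gpc1, Sdc2 and Bgn sit higher at 24 h in both lines, and Gpc4 sits lower in both Vp16-TRF1ΔN libraries.

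Sdc1 and Sdc2 also rose with TGFβ, by less than Sdc3, and Sdc4 had no called change. Sdc1 (chr12:8771323-8793715, plus strand) was the most abundant core gene, with 747 CPM at 24 h and 583 CPM at 0 h in Vp16-TRF1ΔN cells. In TRF1ΔN cells it had 836 CPM at 24 h and 594 CPM at 0 h. Both 24 h libraries exceeded both 0 h libraries, and the average rise was 0.42 ± 0.07 on the log2 scale (SE; adjusted p = 0.0109, edgeR quasi-likelihood test). The ratios were 1.28 in Vp16-TRF1ΔN cells (1.26 to 1.30) and 1.41 in TRF1ΔN cells (1.385 to 1.43).

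Sdc2 (chr15:32920723-33034935, plus strand), a syndecan typical of mesenchymal cells, was the least abundant of the family. It had 20.2 CPM at 24 h and 8.61 CPM at 0 h in Vp16-TRF1ΔN cells, and 11.1 CPM at 24 h and 6.17 CPM at 0 h in TRF1ΔN cells. It was higher at 24 h in both lines and higher in Vp16-TRF1ΔN cells at both times. Averaged over the lines it rose with TGFβ by 1.04 ± 0.14 on the log2 scale (SE; adjusted p = 0.00581, edgeR quasi-likelihood test). The call was lost in a model with time alone, where adjusted p was 0.0562, within a range of 0.000136 to 0.0562 over the alternatives. The ratio of 24 h to 0 h was 2.34 in Vp16-TRF1ΔN cells (2.06 to 2.665) and 1.79 in TRF1ΔN cells (1.55 to 2.08).

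Sdc4 encodes the broadly expressed syndecan of focal adhesions. It had 418 CPM at 24 h and 324 CPM at 0 h in Vp16-TRF1ΔN cells, and 314 CPM at 24 h and 298 CPM at 0 h in TRF1ΔN cells. The 24 h and 0 h libraries overlapped across the lines, and the average log2 change was 0.22 ± 0.09 (SE; adjusted p = 0.122, edgeR quasi-likelihood test). The ratio was 1.29 in Vp16-TRF1ΔN cells (1.26 to 1.32) and 1.05 in TRF1ΔN cells (1.03 to 1.08), where the log2 ratio turned to -0.02 when libraries were scaled by total counts alone.

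Per kilobase of exons, at which levels of different genes can be compared, the syndecans summed to 424.5 CPM per kb at 24 h and 288 CPM per kb at 0 h in Vp16-TRF1ΔN cells. In TRF1ΔN cells they summed to 435 CPM per kb at 24 h and 280.3 CPM per kb at 0 h. Sdc1 and Sdc4 ranked first and second of all 9 core genes in each library. Sdc3 made up 13.75% of the syndecan sum at 24 h and 1.80% at 0 h in Vp16-TRF1ΔN cells, and 20.4% at 24 h and 1.92% at 0 h in TRF1ΔN cells. Sdc4 made up 38.7% at 24 h and 44.2% at 0 h in Vp16-TRF1ΔN cells, and 28.3% at 24 h and 41.8% at 0 h in TRF1ΔN cells. The share of Sdc1 stayed between 46.2% and 55.7%, and that of Sdc2 between 0.624% and 1.35%. These shares are of RNA level, with 1 library each and no test.

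**Figure D2:**
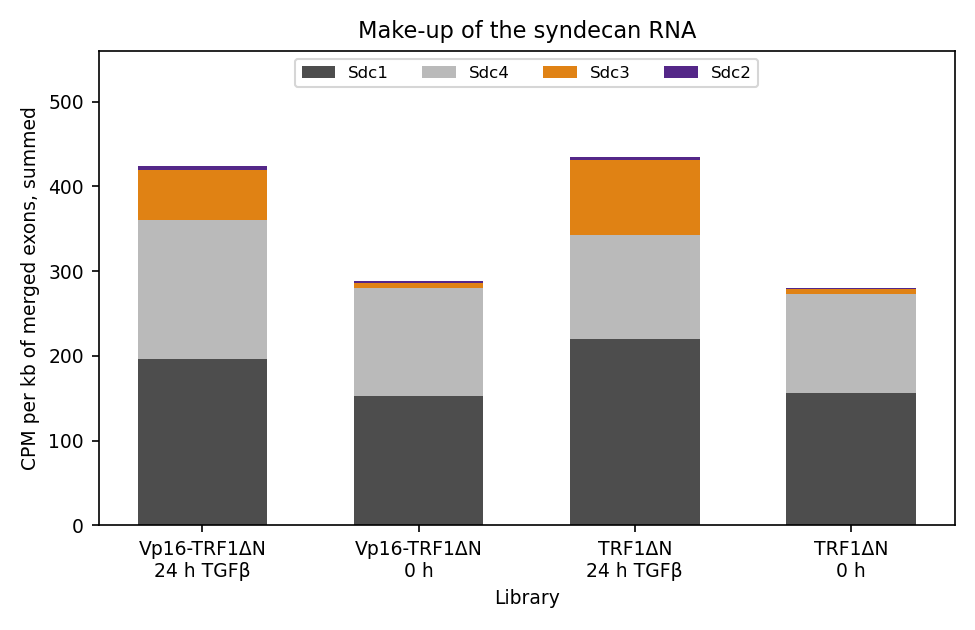
Summed level of the 4 syndecan genes in CPM per kb of merged exons, stacked by gene, 1 bar per library. The Sdc3 segment (orange) is 58.4 CPM per kb at 24 h and 5.175 CPM per kb at 0 h in Vp16-TRF1ΔN cells, and 88.75 CPM per kb at 24 h and 5.39 CPM per kb at 0 h in TRF1ΔN cells.

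Among the glypicans, Gpc1 rose and the others had no called change. Gpc1 (chr1:92831645-92860779, plus strand) had 254 CPM at 24 h and 76.2 CPM at 0 h in Vp16-TRF1ΔN cells, and 297 CPM at 24 h and 92.2 CPM at 0 h in TRF1ΔN cells. Both 24 h libraries lay above both 0 h libraries. Its average rise was 1.71 ± 0.06 on the log2 scale (SE; adjusted p = 0.000858, edgeR quasi-likelihood test). The ratio of 24 h to 0 h was 3.34 in Vp16-TRF1ΔN cells (3.205 to 3.475) and 3.22 in TRF1ΔN cells (3.11 to 3.33). Gpc1 shares 977 exonic bases with Ankmy1 on the opposite strand, a gene with 2 to 7 counts in any library.

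Gpc4 (chrX:52053021-52165252, minus strand) was lower in both Vp16-TRF1ΔN libraries than in both TRF1ΔN libraries. It had 4 counts at 24 h and 3 counts at 0 h in Vp16-TRF1ΔN cells, and 41 counts at 24 h and 52 counts at 0 h in TRF1ΔN cells. In CPM this was 0.117 and 0.0696 in Vp16-TRF1ΔN cells (24 h, 0 h), and 0.974 and 1.09 in TRF1ΔN cells (24 h, 0 h). The Vp16-TRF1ΔN level was 8.34-fold lower at 24 h (3.02 to 32.1) and 15.7-fold lower at 0 h (5.08 to 78.5). The average log2 difference of the lines was -3.47 ± 0.43 (SE), and it did not pass the test over all genes (adjusted p = 0.346, edgeR quasi-likelihood test). Without the filter on low counts its adjusted p was 0.0142, and over the alternatives it lay between 0.0142 and 0.9999. With TGFβ the average log2 change was -0.04 ± 0.36 (SE; adjusted p = 0.935, edgeR quasi-likelihood test), and it turned to 0.18 in DESeq2's Wald test. The ratio of 24 h to 0 h was 1.68 in Vp16-TRF1ΔN cells (0.284 to 11.45) and 0.892 in TRF1ΔN cells (0.578 to 1.37).

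Gpc6 (chr14:116925315-117976544, plus strand) was low in each library. It had 4.90 CPM at 24 h and 6.125 CPM at 0 h in Vp16-TRF1ΔN cells, and 4.75 CPM at 24 h and 5.21 CPM at 0 h in TRF1ΔN cells. Its average log2 change was -0.23 ± 0.15 (SE; adjusted p = 0.274, edgeR quasi-likelihood test). Both 24 h values were below both 0 h values, yet the interval of the ratio left out 1 in Vp16-TRF1ΔN cells (0.800, 0.656 to 0.975) and took it in for TRF1ΔN cells (0.913, 0.754 to 1.10). Per kilobase, the 3 glypicans summed to 50.1 CPM per kb at 24 h and 15.75 CPM per kb at 0 h in Vp16-TRF1ΔN cells, and to 58.6 CPM per kb at 24 h and 19.1 CPM per kb at 0 h in TRF1ΔN cells. Gpc1 made up 98.4% at 24 h and 93.8% at 0 h in Vp16-TRF1ΔN cells, and 98.1% at 24 h and 93.6% at 0 h in TRF1ΔN cells.

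Perlecan (Hspg2, chr4:137468769-137570630, plus strand) had 115.5 CPM at 24 h and 111 CPM at 0 h in Vp16-TRF1ΔN cells. In TRF1ΔN cells it had 171 CPM at 24 h and 125 CPM at 0 h. The TRF1ΔN library at 24 h was the highest and the other 3 lay close together. The average change with TGFβ was 0.25 ± 0.11 on the log2 scale and was not called (SE; adjusted p = 0.131, edgeR quasi-likelihood test). The ratio of 24 h to 0 h was 1.04 in Vp16-TRF1ΔN cells (0.996 to 1.08), where the log2 ratio turned to -0.03 when libraries were scaled by total counts alone, and 1.37 in TRF1ΔN cells (1.32 to 1.415).

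**Figure D3:**
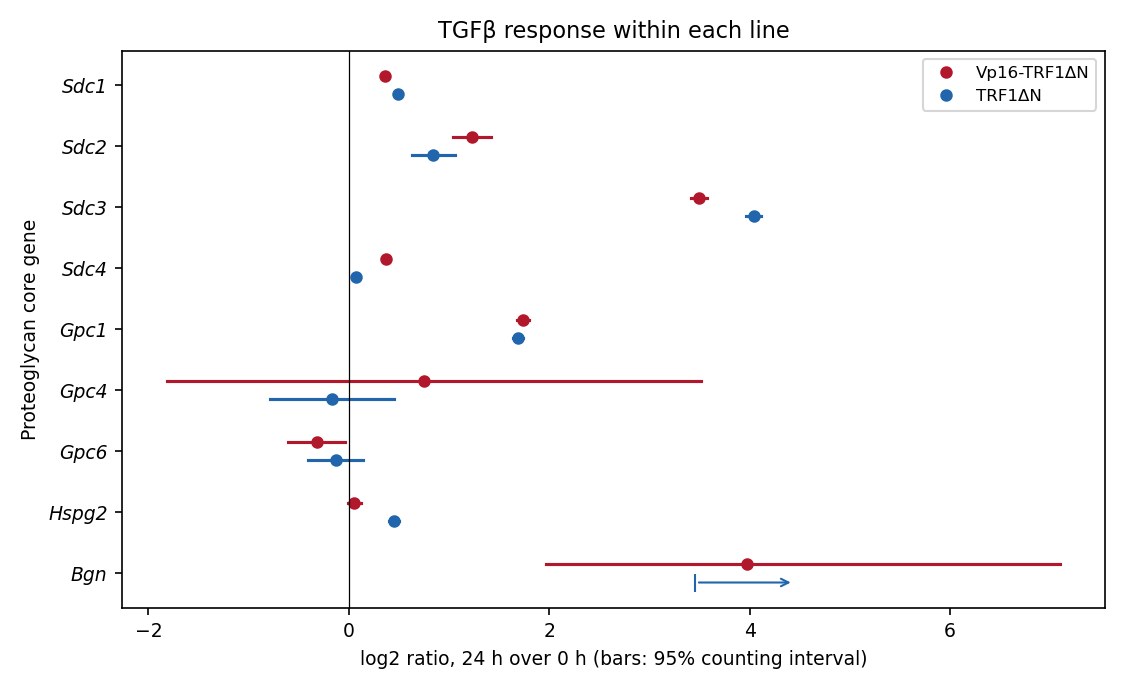
log2 ratio of 24 h over 0 h for each core gene, Vp16-TRF1ΔN above TRF1ΔN, with bars for the 95% counting interval where it is wider than the point; the arrow for Bgn starts at the ratio to the floor of 3 counts. Sdc3 (3.50 in Vp16-TRF1ΔN cells, 4.04 in TRF1ΔN cells), Gpc1 and Bgn stand furthest to the right, and Gpc4 and Bgn have the widest bars.

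Over the 9 core genes, 5 were called higher with TGFβ (Sdc1, Sdc2, Sdc3, Gpc1 and Bgn), none lower, and 4 were not called (edgeR quasi-likelihood test, adjusted p under 0.05). Among the 5, Bgn passed the filter on low counts only through its 24 h libraries. Over all 14305 genes tested, 48.5% were called, 23.1% higher and 25.4% lower, so a call as such was common in this fit. The median log2 change was 0.42 for the core genes and -0.01 for all genes tested. The same 5 were called with DESeq2's size factors, without the filter on low counts, with DESeq2's Wald test and with mitochondrially encoded genes left out.

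A change within a line was counted if it reached 2-fold, with an average of 1 CPM or more and a counting interval free of 1. Gpc4 and Bgn average below 1 CPM, which leaves 7 core genes for this count. In Vp16-TRF1ΔN cells 3 were counted higher at 24 h (Sdc2, Sdc3 and Gpc1) and none lower, against 7.01% of 11777 genes counted higher and 9.17% lower. In TRF1ΔN cells 2 were counted higher (Sdc3 and Gpc1) and none lower, against 8.50% of genes higher and 11.0% lower.

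No core gene was called between Vp16-TRF1ΔN and TRF1ΔN in the average over both times, as was the case for all 14305 genes (0.00% called in either direction, edgeR quasi-likelihood test). At an unadjusted p under 0.05 in this test there were 1779 of the 14305 genes, among them 5 of the 9 core genes. Of the 5, Sdc2 and Sdc4 were higher in Vp16-TRF1ΔN cells, and Gpc1, Gpc4 and Hspg2 lower. In a model with line alone, 56 genes reached this level, among them 1 core gene. DESeq2's Wald test called 13 genes higher and 34 lower in Vp16-TRF1ΔN cells, none of them a core gene. By the 2-fold rule, none of the 7 core genes that average 1 CPM or more was counted at 24 h. There, 2.23% of genes were counted higher and 1.20% lower in Vp16-TRF1ΔN cells. None of the 7 was counted at 0 h either, where the shares were 0.204% higher and 0.442% lower. Gpc4, left out for its low average, was 8.345-fold lower in Vp16-TRF1ΔN cells at 24 h and 15.7-fold lower at 0 h.

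Among the core genes other than Gpc4, smaller differences between the lines were found at 24 h. Sdc3 was 0.658 times the TRF1ΔN level in Vp16-TRF1ΔN cells at 24 h (0.643 to 0.673) and 0.9595 times at 0 h (0.891 to 1.03). Hspg2 was 0.677 times the TRF1ΔN level at 24 h (0.651 to 0.704) and 0.890 times at 0 h (0.857 to 0.925). Both were thus lower in Vp16-TRF1ΔN cells at 24 h, by more than counting error. Sdc2 was 1.82 times as high in Vp16-TRF1ΔN cells at 24 h (1.62 to 2.05) and 1.395 times at 0 h (1.19 to 1.63). Sdc4 was 1.33 times as high at 24 h (1.30 to 1.37) and 1.09 times at 0 h (1.06 to 1.11). Sdc1 and Gpc1 were between 0.827 and 0.981 times the TRF1ΔN level at either time, and the Gpc6 intervals took in 1. Bgn was 1.06 times the TRF1ΔN level at 24 h (0.595 to 1.87), and at 0 h its counts of 2 and 0 allow no comparison. Averaged over both times, these genes had an adjusted p between 0.397 and 0.849 (edgeR quasi-likelihood test).

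**Figure D4:**
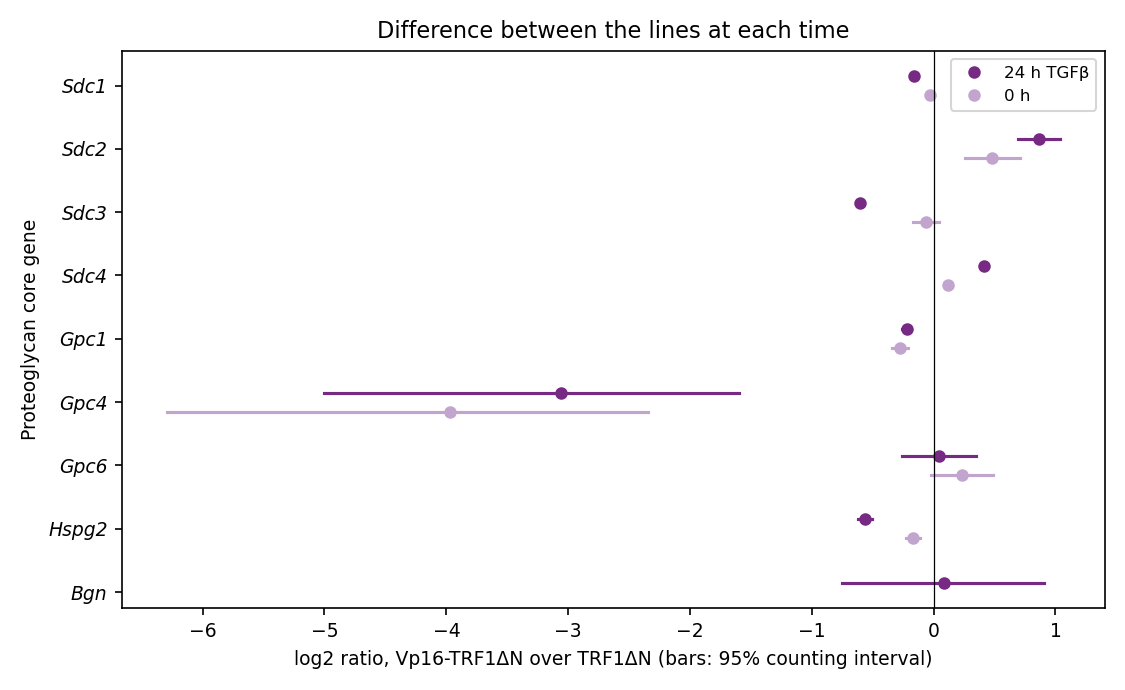
log2 ratio of Vp16-TRF1ΔN over TRF1ΔN for each core gene, 24 h above 0 h, with bars for the 95% counting interval; Bgn has no 0 h value because a count was 0. Gpc4 stands apart at -3.06 (24 h) and -3.97 (0 h), and at 24 h Sdc3 and Hspg2 lie at -0.60 and -0.56 while Sdc2 and Sdc4 lie at 0.87 and 0.42.

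The size of the TGFβ response was set between the lines as the log2 ratio in Vp16-TRF1ΔN cells minus that in TRF1ΔN cells, with an interval for counting error and no test. It was -0.54 for Sdc3 (-0.65 to -0.43), -0.40 for Hspg2 (-0.47 to -0.32) and -0.14 for Sdc1 (-0.17 to -0.10), so these responses were smaller in Vp16-TRF1ΔN cells. It was 0.39 for Sdc2 (0.11 to 0.66) and 0.30 for Sdc4 (0.25 to 0.34), larger in Vp16-TRF1ΔN cells. For Gpc1 it was 0.05 (-0.02 to 0.13) and for Gpc6 -0.19 (-0.58 to 0.20), both with intervals that take in 0. None of these reached 2-fold, against 1.93% of genes counted with a higher and 0.951% with a lower ratio in Vp16-TRF1ΔN cells.

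Other genes of proteoglycan biology were read from lists of related function, and their changes with TGFβ are given on the log2 scale as the fitted average of both lines. Of 13 other proteoglycan and related matrix genes tested, 8 rose with TGFβ, 1 fell and 4 were not called (edgeR quasi-likelihood test), against 23.1% of all genes higher and 25.4% lower. Among the 8, Gpc2, Fmod and Smoc1 passed the filter on low counts only through their 24 h libraries, where they are high. Their calls are thus no independent support, and the count of 8 is raised by the filter. The median log2 change was 1.26, the value of Col18a1, against -0.01 for all genes. Versican (Vcan), a large chondroitin sulfate proteoglycan of provisional matrix, rose by 1.81 ± 0.10 (SE; adjusted p = 0.00110). It had 119 CPM at 24 h and 30.5 CPM at 0 h in Vp16-TRF1ΔN cells, and 128 CPM at 24 h and 40.5 CPM at 0 h in TRF1ΔN cells. Podnl1, a leucine-rich repeat gene related to podocan, rose by 4.11 ± 0.29 (adjusted p = 0.00169). Smoc2, a secreted calcium-binding matrix protein, rose by 4.02 ± 0.20 (adjusted p = 0.000977). Smoc1, named after its values were seen, rose by 2.21 ± 0.45 (adjusted p = 0.0181). Its ratio of 24 h to 0 h in Vp16-TRF1ΔN cells, from 9 and 3 counts, had an interval that took in 1 (3.77, 0.942 to 21.7). Podnl1, Smoc2 and Smoc1 are related matrix genes and are not established carriers of sulfated chains. The count of 8 and the median of 1.26 are thus not of proteoglycan cores alone. Aggrecan (Acan), the large proteoglycan of cartilage, fell by 2.67 ± 0.36, with 3 counts at 24 h and 44 counts at 0 h in Vp16-TRF1ΔN cells, and 20 counts at 24 h and 119 counts at 0 h in TRF1ΔN cells. Its adjusted p was 0.00600 in the edgeR quasi-likelihood test and 0.0516 in a model with time alone.

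Of 15 tested genes for linker and heparan sulfate chain synthesis, 6 rose, 1 fell and 8 were not called, with a median log2 change of 0.25. The list includes genes that supply sugar and sulfate donors, such as Ugdh and Papss2. Calls in either direction were thus about as frequent as over all genes (48.5%). By direction, 23.1% of all genes were called higher and 25.4% lower, while most calls in this list were rises. Ext1, which with Ext2 forms the heparan sulfate polymerase, rose by 1.56 ± 0.07 (SE; adjusted p = 0.000858, edgeR quasi-likelihood test). It had 548 CPM at 24 h and 187.5 CPM at 0 h in Vp16-TRF1ΔN cells, and 578 CPM at 24 h and 193 CPM at 0 h in TRF1ΔN cells. Both 24 h values were above both 0 h values. Extl3, which starts the chain, rose by 0.84 ± 0.10 (adjusted p = 0.00474), and B4galt7, a galactosyltransferase of the linker, by 0.83 ± 0.09 (adjusted p = 0.00345). Fam20b, a kinase for the linker xylose, fell by 0.30 ± 0.08 (adjusted p = 0.0310), a call not made by DESeq2's Wald test (adjusted p = 0.0534) or with time alone (adjusted p = 0.0851).

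Of 12 tested genes that modify or remove heparan sulfate, 4 rose, 4 fell and 4 were not called, with a median log2 change of 0.18 (edgeR quasi-likelihood test). Both directions were also common over all genes (23.1% higher, 25.4% lower). Heparanase (Hpse), which cuts heparan sulfate chains, fell by 3.36 ± 0.14 (SE; adjusted p = 0.000858). It had 1.49 CPM at 24 h and 16.5 CPM at 0 h in Vp16-TRF1ΔN cells, and 1.69 CPM at 24 h and 16.3 CPM at 0 h in TRF1ΔN cells. The 3-O-sulfotransferase genes Hs3st3b1 and Hs3st1 fell by 2.28 ± 0.16 and 1.86 ± 0.26 (adjusted p = 0.00169 and 0.00674). Another gene of that enzyme class moved the other way: Hs3st3a1, named after its values were seen, had 29 counts at 24 h and 1 count at 0 h in Vp16-TRF1ΔN cells, and 75 counts at 24 h and 1 count at 0 h in TRF1ΔN cells (adjusted p = 0.00245). Hs3st3a1, among the 4 that rose, passed the filter on low counts only through its 24 h libraries. Among the 6-O-sulfotransferases, Hs6st2 rose by 1.47 ± 0.25 (adjusted p = 0.0107), while Hs6st1, also named after its values were seen, fell by 0.89 ± 0.08 (adjusted p = 0.002275). Glce, the epimerase, rose by 0.87 ± 0.16 (adjusted p = 0.0133), and Ndst1, an N-deacetylase and N-sulfotransferase, by 0.27 ± 0.07 (adjusted p = 0.0280). DESeq2's Wald test did not call Hs6st2 (adjusted p = 0.0515) or Ndst1 (adjusted p = 0.106).

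Of 13 tested genes for chondroitin and dermatan sulfate synthesis, 10 rose, none fell and 3 were not called, with a median log2 change of 0.97 (edgeR quasi-likelihood test). Over all genes 23.1% were called higher and 25.4% lower. Chst11, a chondroitin 4-O-sulfotransferase, rose by 2.78 ± 0.08 (SE; adjusted p = 0.000858). It had 79.9 CPM at 24 h and 11.0 CPM at 0 h in Vp16-TRF1ΔN cells, and 109 CPM at 24 h and 16.8 CPM at 0 h in TRF1ΔN cells. Chst15, which adds a further sulfate to chondroitin 4-sulfate, rose by 2.42 ± 0.33 (adjusted p = 0.00614). Csgalnact1, which starts the chondroitin chain, rose by 1.44 ± 0.07 (adjusted p = 0.00103).

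Among 12 tested genes for shedding, processing and partners of core proteins, 6 rose, 2 fell and 4 were not called, with a median log2 change of 0.20 (edgeR quasi-likelihood test; 23.1% of all genes called higher and 25.4% lower). Bmp1, a protease known to process probiglycan, rose by 2.27 ± 0.10 (SE; adjusted p = 0.000917). It had 249.8 CPM at 24 h and 58.2 CPM at 0 h in Vp16-TRF1ΔN cells, and 302 CPM at 24 h and 56.1 CPM at 0 h in TRF1ΔN cells. Mmp14, a membrane-bound matrix protease that can cut syndecan-1, rose by 1.69 ± 0.11 (adjusted p = 0.00140). Mmp9, a secreted gelatinase, had 48 counts at 24 h and 1 count at 0 h in Vp16-TRF1ΔN cells, and 194 counts at 24 h and 1 count at 0 h in TRF1ΔN cells. Its ratio of 24 h to 0 h, imprecise for the single 0 h counts, was 60.4 in Vp16-TRF1ΔN cells (10.3 to 2434) and 219.6 in TRF1ΔN cells (38.95 to 8716). The average rise of Mmp9 was called (adjusted p = 0.00146). Mmp9, among the 6 that rose, passed the filter on low counts only through its 24 h libraries, so this call is no independent support. Adam17, a sheddase of syndecans, fell by 0.37 ± 0.08 (adjusted p = 0.0204), and Tiam1, an exchange factor for Rac known to bind syndecan-1, fell by 0.72 ± 0.12 (adjusted p = 0.00985). In none of the 5 lists was a gene called between Vp16-TRF1ΔN and TRF1ΔN in this test, as over all genes.

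**Figure D5:**
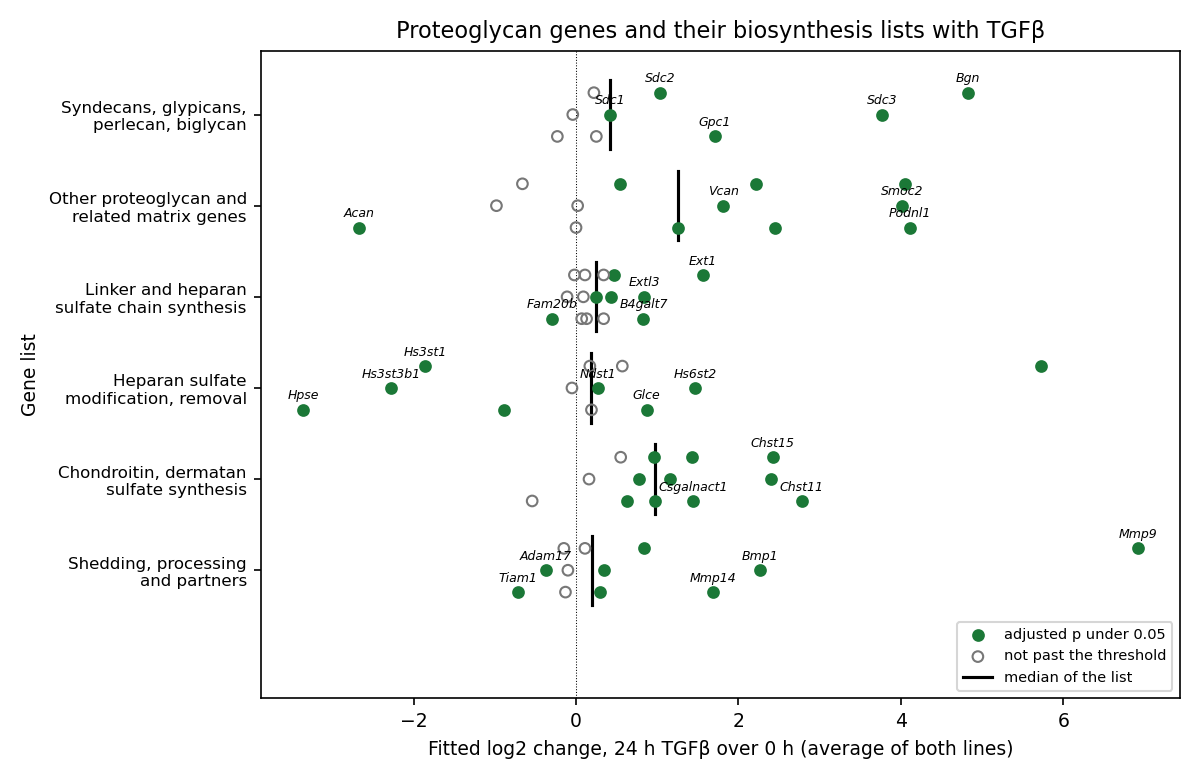
Fitted log2 change with TGFβ (24 h over 0 h, average of both lines) of each tested gene in the core gene set and the 5 related lists; filled points passed an adjusted p of 0.05, the upright bar is the median of the list. The medians of chondroitin and dermatan sulfate synthesis (0.97) and of the other proteoglycan and related matrix genes (1.26) lie furthest right; the fitted values of Bgn, Mmp9 and the unlabelled points at 5.73 (Hs3st3a1), 4.05 (Fmod) and 2.45 (Gpc2) rest on libraries with 2 or fewer counts.

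The genes whose pattern over the 4 libraries was most like that of Bgn, the core gene with the largest fitted rise, were sought among the 10043 genes that average 5 CPM or more. Likeness was the Euclidean distance between centred log2 CPM values, with a prior count of 2. The nearest were Vgll3 at a distance of 0.4998, Clu at 0.614 and Nckap5 at 0.631. Bgn had 2 or fewer counts at 0 h, so its centred values and these neighbours depend on the prior count. For Sdc3, added after its values were seen, the nearest were Adarb1 at 0.126, Gm2115 at 0.173 and Sned1 at 0.201. With only 4 libraries these distances describe the libraries and carry no test.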

How the data were processed

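RNA-seq was made from ribosome-depleted total RNA. Per the submitters' processing notes, FastQC, STAR, HTSeq and DESeq2 were used with genome build mm10. The sources used here state no versions, no annotation release and no strand setting. The authors deposited raw HTSeq counts per gene, and a table of log2 values that equal log2 of the count divided by DESeq2's size factor, plus 1. The 4 construct rows were left out of library sizes and tests. Symbols came from GENCODE M21 (21889 of 21971 genes) and promoter windows from RefSeq.

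Counts were scaled with TMM factors (edgeR 4.0.16, R 4.3.3) and expressed as CPM, or as CPM per kb of merged exons. An additive quasi-likelihood model (line plus time) was fitted to the 14305 genes that passed filterByExpr, with 1 residual degree of freedom (prior degrees of freedom 3.39, BCV 0.0931). Some genes with few counts passed this filter only through the libraries where they are high. Among them, Bgn, Gpc2, Fmod, Smoc1, Csf1r, Cdh5, Mmp9 and Hs3st3a1 passed through 24 h alone, and Cidec through 0 h alone. Two-sided tests had Benjamini-Hochberg adjustment over all genes tested, and SE is the log2 change over the root of F. Since each group holds 1 library, p-values rest on departure from additivity and on the spread across genes, not on replicates. Ratios have exact Clopper-Pearson 95% intervals conditional on the sum of counts; differences of responses use Poisson variances. The fit was also run on simulated counts with known changes in 1 term and the dispersion of the fit itself. For TGFβ it called 77 of 98 genes changed 2-fold and 98 of 100 changed 4-fold, with 11 false calls among 186. For the line it called 84 of 99 and 95 of 100, with 6 false calls among 185. Far more genes were called with TGFβ in the real data, so these runs do not check the p-values given here. Alternatives were DESeq2 1.42.0 (size factors, Wald test), no filter, mitochondrially encoded genes left out, 1 term only, total counts, the deposited log2 values and a 1.5-fold minimum.

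Each core gene was named. From each list, up to 3 called genes in each direction with the largest changes and a mean of at least 1 CPM were named; for likeness, the 3 nearest genes. Members and lists were chosen with earlier results of these data known.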

Additional observations from a re-analysis of the deposited data

Results flagged for a closer look

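The TGFβ response of Gpc4 pointed in opposite directions in the lines. Its log2 ratio of 24 h to 0 h was 0.75 in Vp16-TRF1ΔN cells and -0.16 in TRF1ΔN cells, a difference of 0.91 with a counting interval of -1.33 to 3.15. The difference was not tested, and it rests on 4 and 3 counts in Vp16-TRF1ΔN cells (24 h, 0 h) and on 41 and 52 counts in TRF1ΔN cells (24 h, 0 h).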

How the results depend on the processing

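With 1 library per group, no replicate could be left out, and ratios against a few counts have wide intervals. Intervals cover counting error only. The line term of the model already pairs 24 h with 0 h within each line. No pairing beyond it was possible, because each group holds 1 library and the labels give no replicate numbers. The counterpart without this pairing is time alone, where Sdc2 had an adjusted p of 0.0562 against 0.00581 (edgeR quasi-likelihood test). With DESeq2's Wald test the average TGFβ change of Gpc4 turned to 0.18 (log2), and with total counts alone the Sdc4 ratio in TRF1ΔN cells turned to -0.02 (log2); the cause was not tested for either. Of the linker and chain synthesis genes, 0 were called lower with DESeq2's Wald test (1 in the edgeR fit), and of the heparan sulfate modification genes 2 were called higher (4 in the edgeR fit). Of the chondroitin and dermatan sulfate genes, 1 (Csgalnact2) was called lower without the filter, with DESeq2's Wald test and with mitochondrially encoded genes left out (0 in the edgeR fit). Between the lines, leaving out the filter called 1 core gene (Gpc4), 1 other proteoglycan or related gene (Smoc2, also with DESeq2's Wald test) and 1 chondroitin sulfate gene (Chst11) lower in Vp16-TRF1ΔN cells. At a 1.5-fold minimum 1 core gene was counted higher (Sdc2) and 1 lower (Sdc3) between the lines at 24 h. The share of all genes counted at this lower bar is not given here, so these counts cannot be set against it. The causes were not tested, apart from the lower bar itself. Over all genes, TGFβ calls were 3305 higher and 3631 lower in the edgeR fit, and 2284 higher and 2626 lower with DESeq2's Wald test. Between the lines, 0 genes were called in the edgeR fit, against 28 higher and 81 lower without the filter, 13 higher and 34 lower with DESeq2's Wald test, and 0 higher and 4 lower with mitochondrially encoded genes left out. With total counts alone, the log2 ratio of Hspg2 in Vp16-TRF1ΔN cells was -0.03. Calls lost for Sdc2, Acan, Fam20b, Hs6st2 and Ndst1 are given with their values above. Counts for the core genes and lists not given here kept within 1.5 times of those reported.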
